A study of Homo sapiens with 4 samples.

Results

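The genes described here are LIN28A, LIN28B, HMGA1, HMGA2, IGF2BP1, IGF2BP2, IGF2BP3 and DIS3L2, an oncofetal group centred on the LIN28 and let-7 axis. They were chosen by symbol, and all 8 had a row among the 55765 symbols of the count table. RNA came from SK-N-BE(2)C, an established human neuroblastoma cell line with amplified MYCN, kept for 144 h in ATRA (all-trans retinoic acid, 10 µM) or in its solvent, ethanol. Each group had 2 libraries, called here ATRA replicates 1 and 2 and ethanol replicates 1 and 2, where the label without a number is replicate 1. All 4 libraries came from the same line, and whether those of a group were separate cultures is not stated, so the p-values cover just the spread among these libraries, which may be technical. The comparison asks whether these genes differ in level after retinoid treatment, which drives neuroblastoma cells to differentiate.

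LIN28A and LIN28B are RNA-binding proteins of embryonic cells that block the maturation of let-7, a family of microRNAs which accumulates as cells differentiate. They bind the loop of the let-7 precursor. LIN28A recruits the terminal uridylyl transferases TUT4 and TUT7, and the tailed precursor is destroyed by the exonuclease DIS3L2. Mature let-7 in turn represses LIN28 mRNAs, the chromatin architecture gene HMGA2 and the IGF2BP genes, which encode RNA-binding proteins that stabilise mRNAs in fetal tissue and tumours. LIN28B is known as an oncogene of neuroblastoma that acts upstream of MYCN through let-7.

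The sequences that tie these genes together are the let-7 precursors, which LIN28 proteins bind, and the let-7 matches in the mRNAs. All 9 mature 5p members of the let-7 family in RefSeq (GRCh38.p14), miR-98 included, carry the seed GAGGUAG at bases 2 to 8, in capitals here.
let-7a: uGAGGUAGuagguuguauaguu
let-7c: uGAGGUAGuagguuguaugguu
let-7g: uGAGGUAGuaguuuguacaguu
Of the 12 let-7 family hairpins, 9 hold GGAG, the motif bound by the zinc knuckles of LIN28, between the 5p and the 3p arm. In MIRLET7F2 no 3p arm was listed, and the whole stretch downstream of the 5p arm was searched. The hairpins MIRLET7G (GRCh38.p14, chr3:52268278-52268361, minus strand) and MIRLET7C (chr21:16539828-16539911, plus strand) are shown because their host transcripts were measured here, with the GGAG between the arms in capitals. MIRLET7A3 (chr22:46112749-46112822, plus strand) is shown as 1 of the 3 without it.
MIRLET7G: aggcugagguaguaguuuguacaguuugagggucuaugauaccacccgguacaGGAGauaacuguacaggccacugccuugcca
MIRLET7C: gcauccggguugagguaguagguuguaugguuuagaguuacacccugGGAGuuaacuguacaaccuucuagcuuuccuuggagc
MIRLET7A3: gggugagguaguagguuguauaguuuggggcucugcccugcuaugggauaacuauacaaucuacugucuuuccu

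The let-7 match CTACCTC, the reverse complement of the seed, was searched on the sense strand of 3′ UTRs of principal isoforms in GENCODE 29 (GRCh38). It was found in 7 of the 8 genes and in 8.59% of all 18904 3′ UTRs searched, whose median length was 876.5 bases. The genes were chosen around let-7 and several are known targets, so a high share follows in part from that choice. LIN28B, IGF2BP1 and HMGA2 each held 4 matches, a number reached by 12 of the 18904. The 3′ UTR of LIN28B has 4549 bases, and 23.2% of the 3′ UTRs within 20% of that length held any match. The share was 29.9% at the length of IGF2BP1 (6206 bases) and 14.1% at that of HMGA2 (3003 bases). HMGA1, IGF2BP2, IGF2BP3 and LIN28A held 1 match each, and DIS3L2 held 0. At the lengths of HMGA1, IGF2BP2, IGF2BP3 and LIN28A the share with any match was 8.24%, 11.2%, 12.1% and 16.2%. Another isoform of HMGA2, with a 3′ UTR of 7421 bases, held 0. A match of letters is a description, not a measured site. The first match of 5 genes is printed with the 15 bases before it, the match in capitals, with CTACCTCA where an A follows the 7 letters.
LIN28B: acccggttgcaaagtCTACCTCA
IGF2BP1: tgtgtgcgaagtaaaCTACCTCA
IGF2BP3: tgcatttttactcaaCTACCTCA
HMGA1: tcctctgttcacaaaCTACCTC
HMGA2: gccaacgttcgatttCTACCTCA

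Because MYCN is amplified in this line, the E-box CACGTG, a palindrome that MYC family proteins bind, was searched in promoters of RefSeq (GRCh38.p14), from 250 bases before to 50 after a start. Windows were found for 5 of the 8 genes: LIN28B, HMGA1, IGF2BP2, IGF2BP3 and DIS3L2. IGF2BP3 held CACGTG at 2 places and 1 of the 2 LIN28B windows at 1, while 7.26% of all 35116 windows held at least 1 and 0.664% held at least 2. The stretches around them lie upstream of the starts, at chr7:23470612-23470685 on the minus strand for IGF2BP3 and chr6:104957040-104957085 on the plus strand for LIN28B, with CACGTG in capitals.
IGF2BP3: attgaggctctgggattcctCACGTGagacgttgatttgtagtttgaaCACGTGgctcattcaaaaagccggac
LIN28B: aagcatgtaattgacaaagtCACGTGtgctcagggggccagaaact
No binding was measured, so whether a factor occupies these letters in this line was not tested.

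Total counts lay between 12850462 and 19883465 per library. CYP26A1 and RARB, retinoid targets used as a check of the labels, had 2066 and 4466, and 508 and 1118, reads with ATRA, against 0 and 0, and 20 and 36, with ethanol. The share of mitochondrial ribosomal RNA was 2.49% and 5.96% in ATRA 1 and ethanol 1 and 0.130% and 0.0291% in ATRA 2 and ethanol 2, so the libraries also part by replicate number. All 9 neuroblastoma markers had reads in every library, with summed levels of 4174 to 4644 CPM (counts scaled by library size) with ATRA and 5034 to 5382 with ethanol. Endothelial, leukocyte and epithelial markers summed to at most 1.73 CPM per type. The 4 fibroblast markers together summed to 85.4 to 275 CPM with ATRA and 179 to 438 with ethanol. DCN (40.9 and 246 CPM with ATRA, 139 and 310.04 with ethanol) and LUM (13.7 and 21.8, against 39.8 and 126) made up most of each sum. COL1A1 (23.0 and 4.91, against 0 and 0.644) and PDGFRA (7.86 and 2.15, against 0.462 and 1.29) were higher with ATRA, and the part of these markers in the results was not tested. In a bulk library, fewer cells of a kind and less RNA per cell cannot be told apart.

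In each family the cells used some paralogues and were close to silent for the others (plot of levels by library). LIN28A had 6 and 2 reads with ATRA and 3 and 6 with ethanol, so LIN28B supplied between 99.4% and 99.9% of LIN28 reads in every library. HMGA2 had 0 and 1 reads with ATRA and 2 and 0 with ethanol, where 3 reads, the limit that a count of 0 allows, equal 0.149 to 0.231 CPM. IGF2BP2 had 5 and 3 reads against 2 and 2. These 3 genes were under the filter on low counts and were not tested. For LIN28A the ratio of CPM was 0.937 (95% exact counting interval 0.314 to 2.73) and for IGF2BP2 2.11 (0.565 to 9.56), so no difference was detectable at this depth. For HMGA2 no ratio is given, since both groups lay at or under the limit. Intervals cover counting error only.

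**Figure D1:**
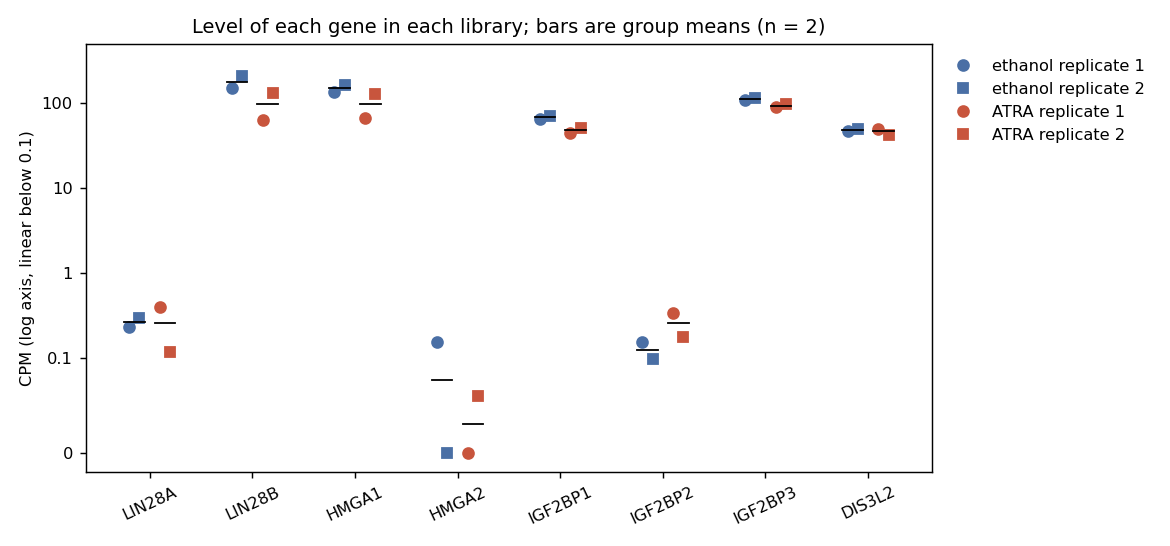
Level of each gene (vertical axis, CPM on a log axis that is linear below 0.1) in the 4 libraries (points) with group means (bars, n = 2). LIN28B, HMGA1, IGF2BP1, IGF2BP3 and DIS3L2 lie above 40 CPM, while LIN28A, HMGA2 and IGF2BP2 lie below 0.5 CPM.

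The other 5 genes passed the filter. None was called between ATRA and ethanol (edgeR quasi-likelihood, Benjamini-Hochberg adjusted p under 0.05 over 18900 genes), where 0.698% of all genes tested were called. At an unadjusted p under 0.05 the count was also 0 of 5, against 15.9% of all genes, and DESeq2 and limma-voom, which called 7.3% and 0.265% of all genes, called 0 as well, also without a term for the replicate number. In the lower direction alone, edgeR called 0 of the 5 and 0.153% of all genes. All 5 fitted differences were below 0, as were those of 49.2% of all genes, and their median log2 fold change was -0.50 against 0.01 over all genes tested. In 4 of the 5, all but DIS3L2, both ATRA libraries lay below both ethanol libraries, an order seen in 21.7% of all genes tested. A lower level within both replicate numbers, seen in 35.3% of all genes, follows from that order and adds nothing for these 4. With the replicate number as a block, edgeR called LIN28B, HMGA1 and IGF2BP1 lower, and 9.38% of all genes lower. That fit has 1 residual degree of freedom. The labels do not say whether the number marks a shared culture. Deviations of same-numbered libraries from their group means correlated at 0.632 over the genes tested.

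LIN28B, the paralogue in use, had 63.9 and 133 CPM with ATRA and 151 and 209 CPM with ethanol. Its lowest library was ATRA 1, and ATRA 2 lay closer to ethanol 1 than to ATRA 1. Its fitted log2 difference was -0.87 ± 0.40 (SE), which is 54.6% of the ethanol level, with adjusted p 0.367 (edgeR quasi-likelihood). Within replicate numbers 1 and 2 the log2 differences were -1.24 and -0.65. Of all genes tested, 9.55% had a lower log2 fold change. The value rests on which ATRA library is used: it was -0.45 without ATRA replicate 1 and -1.51 without ATRA replicate 2, where it passed the threshold (adjusted p 0.0164, edgeR quasi-likelihood), as did 2.92% of the genes tested there in the lower direction. In both groups LIN28B was lower in the library with more mitochondrial ribosomal RNA, whose part in the result was not tested. The antisense gene LIN28B-AS1, listed as LINC00577, had 3 and 19 reads with ATRA and 7 and 31 with ethanol, few beside the 944 to 4215 of LIN28B. The antisense transcript at the HMGA2 locus, RPSAP52, had 0 reads in all 4 libraries, and IGF2BP2-AS1, listed as C3orf65, had 2 and 2 with ATRA and 0 and 0 with ethanol.

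HMGA1 encodes a small protein whose AT-hooks bend DNA at regulatory regions. It had 66.9 and 129 CPM with ATRA and 136 and 166 CPM with ethanol, so that ATRA 2 lay just under ethanol 1. The fitted log2 difference was -0.63 ± 0.36 (adjusted p 0.488, edgeR quasi-likelihood), with -1.03 and -0.37 within replicate numbers. It was -0.24 without ATRA replicate 1 and -1.19 without ATRA replicate 2. The 8 HMGA1 pseudogenes in the table together held 13 to 43 reads per library, between 0.605% and 4.36% of the HMGA1 reads, and the sharing of reads between near-identical copies is not stated.

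The expressed IGF2BP genes varied less between replicates. IGF2BP1 had 45.2 and 51.4 CPM with ATRA against 66.0 and 70.7 CPM with ethanol. Its ATRA libraries both lay below its ethanol libraries, an order seen in 21.7% of all genes tested. Its log2 difference was -0.50 ± 0.23 (adjusted p 0.377, edgeR quasi-likelihood), and the 2 within-replicate values, -0.54 and -0.46, were close to each other. IGF2BP3 had 89.5 and 97.7 CPM with ATRA and 110 and 115 CPM with ethanol, a log2 difference of -0.27 ± 0.23 (adjusted p 0.679, edgeR quasi-likelihood), with -0.30 and -0.23 within replicate numbers.

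DIS3L2, the exonuclease of the pathway, had 50.6 and 42.8 CPM with ATRA and 47.3 and 50.0 CPM with ethanol. Its groups overlapped, and its log2 difference was -0.06 ± 0.24 (adjusted p 0.955, edgeR quasi-likelihood). The within-replicate values were 0.10 and -0.22, and the fitted value turned to 0.05 without ATRA replicate 2.

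**Figure D2:**
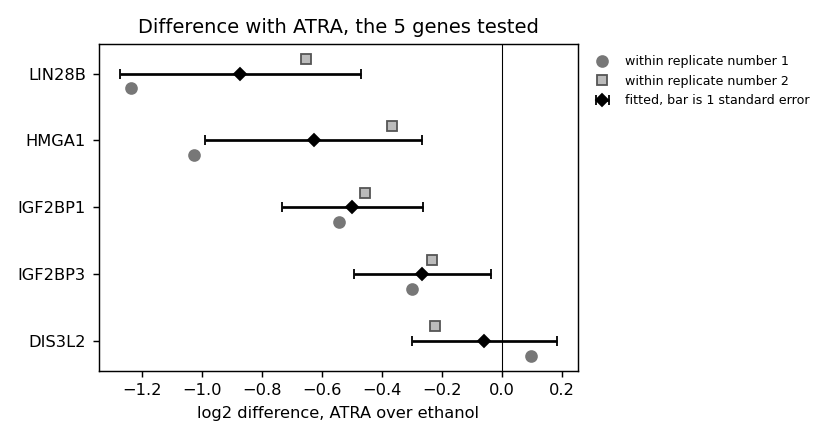
Log2 difference of ATRA over ethanol (horizontal axis) for the 5 genes tested, as fitted (diamonds, bars of 1 SE) and within replicate numbers 1 (circles) and 2 (squares). LIN28B and HMGA1 differ most between replicate numbers, IGF2BP1 and IGF2BP3 least, and DIS3L2 lies on both sides of 0.

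Levels of different genes were compared as CPM per kb of merged exons in GENCODE 29. The annotation used for the counts is not given and may differ. Merged exons join all annotated isoforms, from 2.33 kb for HMGA1 to 11.3 kb for DIS3L2. The order may therefore change with the length of the isoforms in use, which were not measured. On this scale the order with ethanol was HMGA1 at 64.9 ± 8.91, LIN28B at 29.98 ± 6.81, IGF2BP3 at 13.2 ± 0.41, IGF2BP1 at 7.50 ± 0.36 and DIS3L2 at 4.29 ± 0.17 (SD, n = 2). With ATRA the order was the same, at 42.0 ± 18.8, 16.4 ± 8.09, 11.0 ± 0.69, 5.30 ± 0.48 and 4.12 ± 0.48. LIN28B at 10.7 and 22.1 CPM per kb and IGF2BP3 at 10.5 and 11.5 overlapped with ATRA and did not with ethanol.

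Ratios of reads between these genes within a library need no scaling between libraries. IGF2BP1 had 0.506 and 0.526 reads per IGF2BP3 read with ATRA, against 0.599 and 0.614 with ethanol. Its share of all IGF2BP reads was 33.5% (95% Clopper-Pearson interval 31.4 to 35.6) and 34.4% (32.6 to 36.3) with ATRA and 37.4% (35.5 to 39.5) and 38.0% (36.5 to 39.6) with ethanol. The groups did not overlap, although 2 libraries against 2 cannot give an exact permutation p below 0.333 (two-sided). How many other pairs of genes part in this way was not counted. LIN28B per HMGA1 read was 0.956 and 1.03 with ATRA and 1.11 and 1.26 with ethanol. Per read of DIS3L2, LIN28B stood at 1.26 and 3.10 with ATRA and 3.20 and 4.18 with ethanol, so here ATRA 2 all but met ethanol 1. HMGA1 per read of DIS3L2 was 1.32 and 3.00 with ATRA and 2.89 and 3.32 with ethanol, so the groups overlapped.

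**Figure D3:**
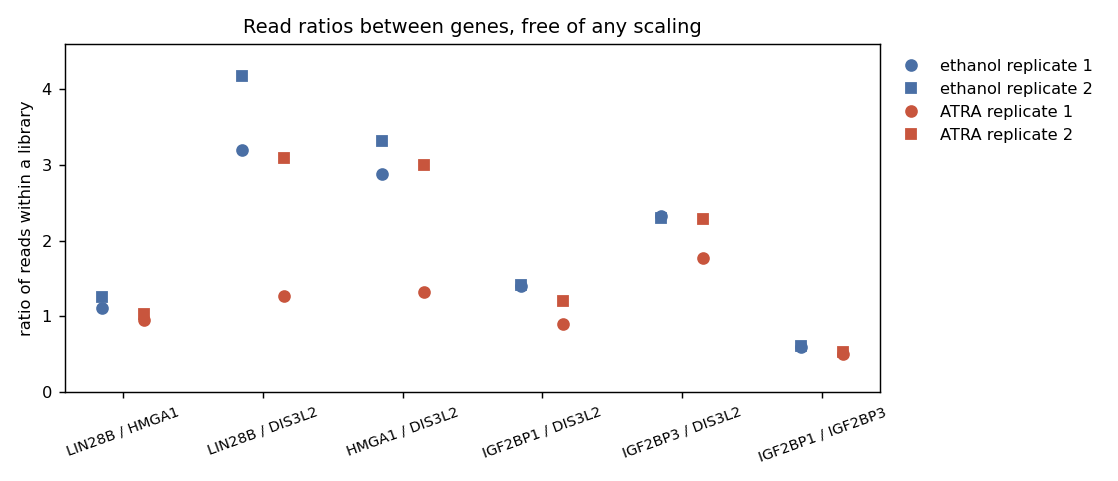
Ratio of the reads of pairs of genes within each library (vertical axis, no unit); points are libraries. For IGF2BP1 over IGF2BP3 the ATRA libraries sit at 0.506 and 0.526 and the ethanol libraries at 0.599 and 0.614, while ATRA replicate 1 stands well below the others for LIN28B and HMGA1 over DIS3L2. The groups overlap for HMGA1 over DIS3L2.

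The wider pathway was read from 9 lists, with 116 genes tested besides the 5 above, of which 0 were called over all genes tested (edgeR quasi-likelihood). DESeq2 called 4 of the listed genes higher (THBS1, MYC, PBX3 and LINC00478, with adjusted p 0.000168, 0.016, 0.0206 and 0.0412) and 2 lower (HMGB2 and HMGN2, 0.000484 and 0.033), and limma-voom called 0. Counts at an unadjusted p under 0.05 are given below, where 9.43% of all genes tested were higher and 6.49% lower. Of 21 genes of let-7 processing, 0 were higher and 0 lower at that level, with a median log2 fold change of -0.16. TUT4 (listed as ZCCHC11) and TUT7 (ZCCHC6), which tail the precursor, were at 0.11 ± 0.35 and 0.45 ± 0.24, and DICER1, which cuts it, was at -0.02 ± 0.31. The Argonaute gene AGO2 was at -0.57 ± 0.24 and the precursor-binding factor KHSRP at -0.49 ± 0.23 (adjusted p 0.328 and 0.373, edgeR quasi-likelihood).

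Reads on the 12 let-7 family rows themselves numbered 41 to 74 per library. The library type does not capture mature microRNAs as such, so no let-7 level is given. Host transcripts were measured instead. LINC00478 (MIR99AHG), host of let-7c, had 23.5 and 76.3 CPM with ATRA and 16.8 and 14.96 CPM with ethanol, at log2 1.65 ± 0.55 (adjusted p 0.224, edgeR quasi-likelihood). Both ATRA libraries were higher, but unequally, with 0.48 and 2.34 within replicate numbers. It was 0.56 without ATRA replicate 2, and was called without ATRA replicate 1 (2.26, adjusted p 8.02e-06, edgeR quasi-likelihood) and without ethanol replicate 2 (1.59, 0.0394). WDR82, host of let-7g, was at 0.30 ± 0.26, and HUWE1, host of let-7f-2 and miR-98, at 0.11 ± 0.28.

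Other known let-7 targets were above 0 more often than below, at 18 and 11 of the 29 tested. Over all genes, 9600 of the 18900 tested were above 0. Of the 29, 4 were higher and 2 lower at an unadjusted p under 0.05, and the median log2 fold change was 0.28. The 2 lower were CDC25A at -1.39 ± 0.52 and RRM2 at -1.04 ± 0.38 (adjusted p 0.274 and 0.256, edgeR quasi-likelihood). PBX3, a TALE homeobox gene, was at 1.13 ± 0.26 (112.6 and 117 CPM with ATRA, 44.9 and 60.5 CPM with ethanol; adjusted p 0.116, edgeR quasi-likelihood). THBS1, a matrix protein, was at 3.80 ± 0.98 with 32.2 and 4.37 CPM with ATRA against 1.54 and 1.09 CPM. It was 1.73 without ATRA replicate 1, and it was called without ATRA replicate 2 or ethanol replicate 2 (adjusted p 4.17e-12 and 6.19e-05, edgeR quasi-likelihood). MYCN, itself a let-7 target, was at -0.70 ± 0.31, with within-replicate values of -0.69 and -0.71. Over the 12519 tested genes whose symbol had a 3′ UTR, the median log2 fold change was 0.05 for the 1233 with a let-7 match and 0.03 for the 11286 without.

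**Figure D4:**
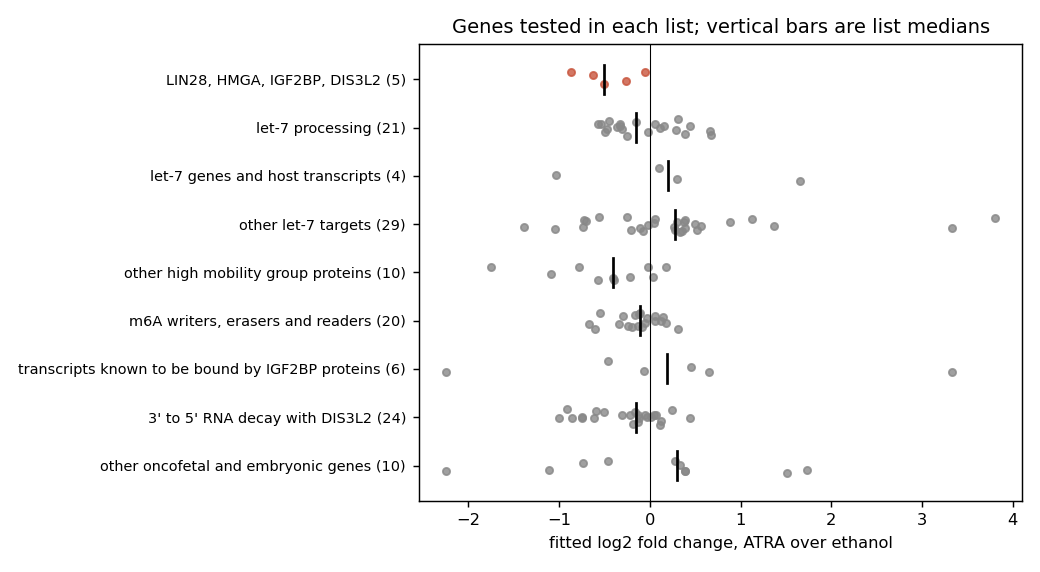
Fitted log2 fold change of ATRA over ethanol (horizontal axis) of the genes tested in each list (points; number tested in parentheses; vertical bars are medians). The oncofetal genes have a median of -0.50 and other let-7 targets one of 0.28, and 0 of the genes drawn passed the adjusted threshold.

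Among 10 other high mobility group genes, 4 were lower and 0 higher at an unadjusted p under 0.05, with a median of -0.40. HMGB2, a DNA-bending protein of dividing cells, was at -1.75 ± 0.36 (56.6 and 98.1 CPM with ATRA, 218.7 and 301 CPM with ethanol; adjusted p 0.0922, edgeR quasi-likelihood). It was called without ATRA replicate 2, ethanol replicate 1 or ethanol replicate 2. The nucleosome-binding gene HMGN2 was at -1.09 ± 0.30 and was called without ATRA replicate 2. HMGB2 and HMGN2 were lowest in ATRA 1, like HMGA1.

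For the readers that IGF2BP proteins belong to, 20 genes of m6A methylation were tested, with 0 higher and 1 lower at an unadjusted p under 0.05 and a median of -0.11. HNRNPA2B1 was at -0.67 ± 0.26 and the methyltransferase METTL16 at -0.61 ± 0.25. Of 6 transcripts that IGF2BP proteins are known to bind, 1 was higher and 1 lower at that level. MYC had 120 and 38 reads with ATRA and 12 and 3 with ethanol, at 3.33 ± 1.05 (adjusted p 0.203, edgeR quasi-likelihood). It was 2.14 without ATRA replicate 1, and it was called without ATRA replicate 2 (3.98) and without ethanol replicate 1 (5.02), with adjusted p 0.00108 and 0.0042 (edgeR quasi-likelihood). H19, the imprinted noncoding RNA, had 4 and 20 reads with ATRA and 27 and 100 with ethanol, at -2.24 ± 0.87. H19 was at -3.68 without ATRA replicate 2 and at -1.46 without ethanol replicate 2, and it was called at -2.78 where ethanol replicate 1 was left out (adjusted p 0.0459).

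Of 24 genes of RNA decay around DIS3L2, 0 were higher and 5 lower at an unadjusted p under 0.05, with a median of -0.15. The mitochondrial exonuclease PNPT1 was at -0.86 ± 0.23 and the exosome subunit EXOSC9 at -1.001 ± 0.28 (adjusted p 0.148 and 0.164, edgeR quasi-likelihood). EXOSC9 was called without ATRA replicate 2. Of 10 other oncofetal and embryonic genes tested, 1 was lower at that level, H19, and the median was 0.30. PLAGL2, a zinc finger factor, was at -0.73 ± 0.31, and TRIM71, a let-7 target of embryonic cells, had 17 to 43 reads with ATRA and 16 to 29 with ethanol.

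Likeness was measured as the Euclidean distance between centred log2 CPM over the 4 libraries, among genes with a mean log2 CPM of at least 3. Over so few libraries many genes lie close. Nearest to LIN28B were COQ10A (0.0443), KCNAB2 (0.0758) and CASP8AP2 (0.0782), and HMGA1 lay at 0.293. Nearest to HMGA1 were PRTFDC1, ZNF680 and CCDC117, at 0.0430 to 0.0644. IGF2BP1 was nearest to PAXBP1, STAG1 and XRCC6 (0.0205 to 0.0408), and IGF2BP3 to ELOVL6, NAP1L4 and NSDHL (0.0170 to 0.0244). DIS3L2 was nearest to MARK2, NFXL1 and CNEP1R1 (0.0153 to 0.0462). IGF2BP1 and IGF2BP3 lay 0.239 apart and LIN28B and DIS3L2 1.30 apart, the smallest and the largest distance between the 5 genes.

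**Figure D5:**
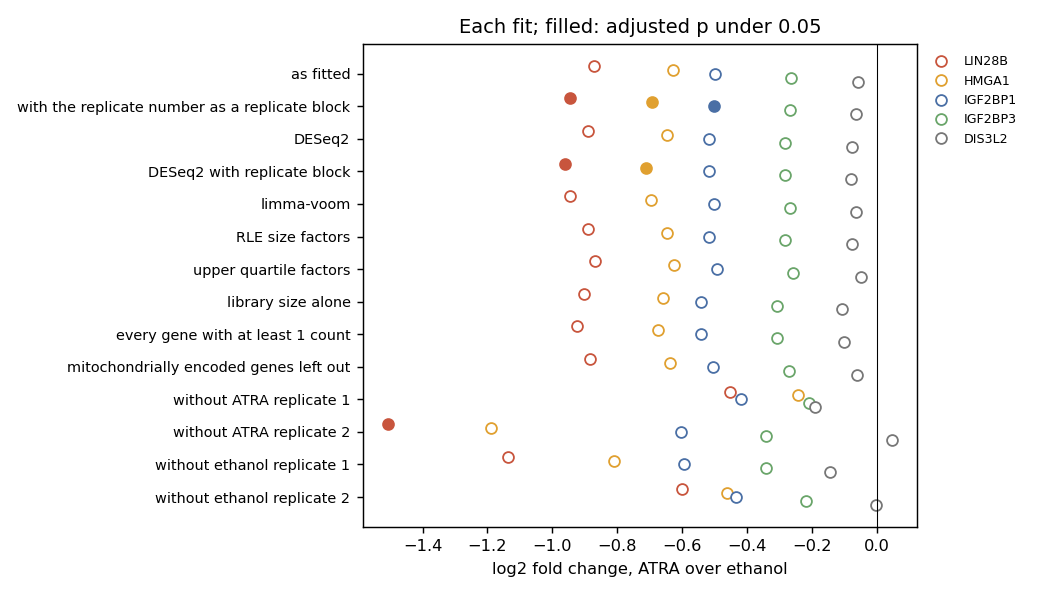
Log2 fold change of ATRA over ethanol (horizontal axis) of the 5 genes under each fit (rows); filled points have an adjusted p under 0.05. LIN28B ranges from -1.51 to -0.45 and is filled in 3 fits, 2 of them with the replicate number as a block, while DIS3L2 stays within -0.19 and 0.05.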

How the data were processed

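Raw counts, whole and unscaled, were deposited by the authors for each symbol. Per the submitters' processing notes, STAR 2.5.2b, featureCounts 1.5.1 and build hg19 were used; annotation, strand setting and the treatment of shared reads are not given, so reads of overlapping or near-identical genes are uncertain. Per the labels' protocols, ribosomal RNA was depleted from total RNA and libraries were directional. Counts were analysed with edgeR 4.0.16 in R 4.3.3: filterByExpr (minimum count 10), TMM scaling, robust quasi-likelihood F test with group as the sole term, Benjamini-Hochberg over 18900 genes, threshold 0.05, two-sided. SE is the absolute log2 fold change over the square root of F. CPM use TMM-scaled library sizes; within-replicate differences use log2 CPM with a prior count of 2. Alternatives used DESeq2 1.42.0, limma 3.58.1 (voom), other scalings and filters, a block, and each library left out. The procedure was also run on simulated counts that held no effect of the replicate number, so that run cannot show how it behaves where such an effect is present.

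The genes and lists were chosen with earlier results of these data known. From each list the 2 genes with the smallest p are named where none was called (mean log2 CPM of at least 1). TUT4, TUT7, DICER1, MYCN, HUWE1 and TRIM71 were added for their roles. CDC25A and RRM2 were added after their values were seen, as the let-7 targets counted as lower. Older symbols were matched through RefSeq synonyms. Per list, 0 to 3 symbols had no match. MicroRNA and promoter sequences are RefSeq's (GRCh38.p14) and 3′ UTRs GENCODE 29's, used for sequence and length only. Total counts were 12850462 to 19883465 per library.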

Additional observations from a re-analysis of the deposited data

How the results depend on the processing

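LIN28B, HMGA1, IGF2BP1 and IGF2BP3 were lower with ATRA in all 13 alternative fits. DIS3L2 turned to 0.047 without ATRA replicate 2, and the fits without a library gave it -0.19 to 0.05. Of the 8 genes, the fits without a library called 0 to 1 lower, LIN28B without ATRA replicate 2 being the call (there the lone library is assumed to vary like the other group); with DESeq2, limma-voom, other scalings or the looser filter 0 were called. The labels do not say whether the same replicate number marks a shared culture, and deviations of same-numbered libraries correlated at 0.632 over genes. With that number as a replicate block, edgeR called 3 lower: LIN28B (-0.94, adjusted p 0.00617), HMGA1 (-0.69, 0.0303) and IGF2BP1 (-0.50, 0.0453). That fit has 1 residual degree of freedom and called 21.7% of all genes. DESeq2 with the block called 2 lower, LIN28B (adjusted p 0.00148) and HMGA1 (0.0337), with 14.4% of all genes called.

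Over all genes, 103 were called higher and 29 lower. The block gave 2325 and 1773, DESeq2 877 and 503, DESeq2 with the block 1528 and 1199, limma-voom 43 and 7, and every gene with at least 1 count 1126 and 695. Leaving out mitochondrially encoded genes gave 44 lower. Fits without a library gave 547 to 838 higher and 231 to 604 lower. Of the listed genes, 0 were called in either direction; the block called 10 higher and 23 lower, DESeq2 4 and 2, DESeq2 with the block 6 and 14, every gene with at least 1 count 5 and 7, and fits without a library 1 to 3 higher and 1 to 6 lower. The cause of these shifts was not tested.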

Other observations

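Among the genes with at least 4 let-7 matches in the 3′ UTR, 8 besides LIN28B, IGF2BP1 and HMGA2 are described here, named after their values were seen. IGDCC3, an immunoglobulin superfamily gene of the embryo, had 6.60 CPM with ATRA and 26.03 CPM with ethanol on average, at log2 -1.98 ± 0.32 (adjusted p 0.0617, edgeR quasi-likelihood). The cohesin gene SMC1A was at -0.72 ± 0.32 and NR6A1 at -0.56 ± 0.58. HIC2 and ZBTB37 were at -0.18 ± 0.26 and -0.17 ± 0.23. HEMK1, TRIM71 and LIMD2 were at 0.39 ± 0.36, 0.39 ± 0.81 and 0.48 ± 0.25. HMGA2 was not tested.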
